A study of Homo sapiens with 3 samples.

Results

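Tubulin isotypes are the products of separate genes for alpha, beta and gamma tubulin, and 10 of these genes were followed in H128 cells: 4 for alpha tubulin (TUBA1A, TUBA1B, TUBA1C and TUBA4A), 5 for beta tubulin (TUBB, TUBB2A, TUBB2B, TUBB3 and TUBB4B) and TUBG1 for gamma tubulin. They were found by gene symbol in a table of 17448 genes, from a list chosen with earlier results of these data known. All 10 were among the 14031 genes that had 10 or more counts in some library. This follows from the list and is not a result. The lowest member, TUBB2A, had a mean of 2280 counts, while TUBE1, a tubulin gene outside the list, had 419.67.

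Microtubules are built from dimers of 1 alpha and 1 beta tubulin, and gamma tubulin nucleates them at centrosomes. The isotypes are nearly alike in their globular body and differ most in the acidic carboxy-terminal tail that lines the outside of the microtubule, where modifying enzymes and motors act. TUBB3 is the beta isotype used as a marker of neurons, and it is also expressed in neuroendocrine tumours. Cells adjust tubulin mRNA to the supply of free dimers: a surplus triggers decay of alpha and beta mRNAs on the ribosome, recognised through the first residues of the new chain.

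The RNA came from H128, an established human small cell lung cancer (SCLC) line grown in RPMI1640 with serum. Cells were transfected with a control siRNA (siCont) or with 1 of 2 siRNAs against ESRRG, the gene of the orphan nuclear receptor ERRγ (libraries siERRG2 and siERRG3), and RNA was taken 48 h later. The question was which transcripts depend on ERRγ. Each condition was 1 library of 1 cell line, so no difference reported here has a replicate check, and no p-value or SD was computed. Wherever 3 values of a gene are listed, they belong to siCont, siERRG2 and siERRG3 in that order, and a pair of fold changes or ratios belongs to siERRG2 and then siERRG3, each against siCont. The estimated counts summed to 19861937, 19900580 and 20016780. ESRRG had 806, 211 and 230 counts in these libraries, log2 fold changes of -1.94 and -1.82. Of the neuroendocrine markers, INSM1 had 5279 to 10359 counts and NEUROD1 4073 to 7395, while YAP1, a marker of non-neuroendocrine SCLC, had 1 to 3 and the endothelial marker VWF 0 to 1.

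The coding sequences show how closely some members resemble each other, which bears on the counts because short reads were assigned to genes. Windows of 50 bases, the read length named in the methods, were used to measure this, and for longer or paired reads the shares would differ. The last 60 coding bases, stop codon included, encode the variable tail. They are shown 5′ to 3′ for a nearly identical pair and for a pair that has diverged, from GENCODE transcripts on GRCh37. Capitals mark bases that differ from the partner when both are read position by position from the stop codon.
TUBB2A, chromosome 6: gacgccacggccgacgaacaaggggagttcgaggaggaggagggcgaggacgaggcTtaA
TUBB2B, chromosome 6: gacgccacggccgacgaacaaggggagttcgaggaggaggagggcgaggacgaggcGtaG
TUBB, chromosome 6: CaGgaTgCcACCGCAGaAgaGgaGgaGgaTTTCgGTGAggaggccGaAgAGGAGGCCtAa
TUBB3, chromosome 16: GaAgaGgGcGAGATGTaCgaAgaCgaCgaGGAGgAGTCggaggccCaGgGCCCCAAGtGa

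TUBB2A and TUBB2B differed at 2 of these 60 bases, and TUBB and TUBB3 at 34. TUBA1A and TUBA1B, both on chromosome 12, did not differ at any of the 60. Over the whole coding sequence the identity was 98.1% for TUBB2A and TUBB2B, 97.2% for TUBA1A and TUBA1B, 96.8% for TUBA1B and TUBA1C, and 81.6% for TUBB and TUBB3. TUBG1 was 49.0% to 52.9% identical to the other 9 members. The first 12 coding bases, in capitals throughout, encode the residues through which alpha and beta mRNAs are recognised in autoregulation. TUBA1A, TUBA1B and TUBA1C share ATGCGTGAGTGC, TUBB and TUBB4B share ATGAGGGAAATC, TUBB3 has ATGAGGGAGATC, and TUBG1 has ATGCCGAGGGAA.

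In RefSeq on GRCh38, 3 alpha genes lie close together on chromosome 12, TUBA1B at 49127782-49131395, TUBA1A at 49184795-49189080 and TUBA1C at 49227926-49274600. TUBB2A (3153666-3157544) and TUBB2B (3224277-3227653) are neighbours on chromosome 6, far from TUBB at 30720352-30725422. TUBA4A lies on chromosome 2 (219249710-219254740), TUBB3 on chromosome 16 (89921925-89936097), TUBB4B on chromosome 9 (137241287-137243707) and TUBG1 on chromosome 17 (42609683-42615238).

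Of all 50-base windows of its main transcript, TUBB2A shared 59.5% exactly with another member and TUBB2B 49.8%. The share was 56.6% for TUBA1B, 50.5% for TUBA1A, 26.7% for TUBA1C, 8.57% for TUBB3 and 6.21% for TUBB4B, and TUBA4A, TUBB and TUBG1 shared no window with another member. TUBG1 shared 29.1% of its windows with TUBG2. With genes outside the members, TUBA4A shared 34.5% of its windows, 28.95% with STK16, and TUBB shared 32.7%. Of the windows of TUBB3, 92.8% also lay in a read-through transcript of the same locus, and 68.7% of those of TUBA1B lay in its antisense gene TUBA1B-AS1. The deposited counts of all 10 members were fractional, so reads had been divided among genes or transcripts. Values of TUBA1A, TUBA1B and TUBA1C against each other, and of TUBB2A against TUBB2B, are uncertain for that reason. The values of TUBA4A, TUBB, TUBB3 and TUBG1 also rest in part on windows shared with genes outside the members.

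Levels between genes were compared on the deposited length-scaled expression value, which behaves as FPKM. TUBA1B, a widely expressed alpha isotype, was the highest member, with 1950, 1733 and 1834. TUBB, the most widely expressed beta isotype, had 1095, 1035 and 881, and TUBA1A, an alpha isotype prominent in developing neurons, had 989, 857 and 917. TUBA1B ranked 17 among the 17448 genes in siCont, and TUBB ranked 63.

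A middle group had values from 218 to 356. TUBA1C had 292, 263 and 356. TUBA4A, an alpha isotype abundant in postmitotic cells, had 285, 218 and 227, and TUBB4B, a broadly expressed beta isotype that is also a component of cilia, had 273, 256 and 267. The ranges of TUBA1C and TUBA4A over the 3 libraries overlapped, as did those of TUBA4A and TUBB4B. TUBA1C was the highest of the 3 genes in each library, while the order of TUBA4A and TUBB4B changed between libraries.

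The lowest group held TUBB3 with 191, 141 and 145, TUBB2B with 129, 141 and 66.2, TUBG1 with 91.0, 91.9 and 111, and TUBB2A with 75.4, 64.7 and 72.1. The ranges of TUBB3 and TUBB2B overlapped, as did those of TUBB2B and TUBG1, and those of TUBB and TUBA1A higher up. TUBB2B, a beta isotype of the developing brain, was 8th of the 10 in siCont and 10th in siERRG3, where it ranked 1322 of all genes against 574 in siCont. The other members moved by at most 1 place in the order between siCont and siERRG3.

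**Figure D1:**
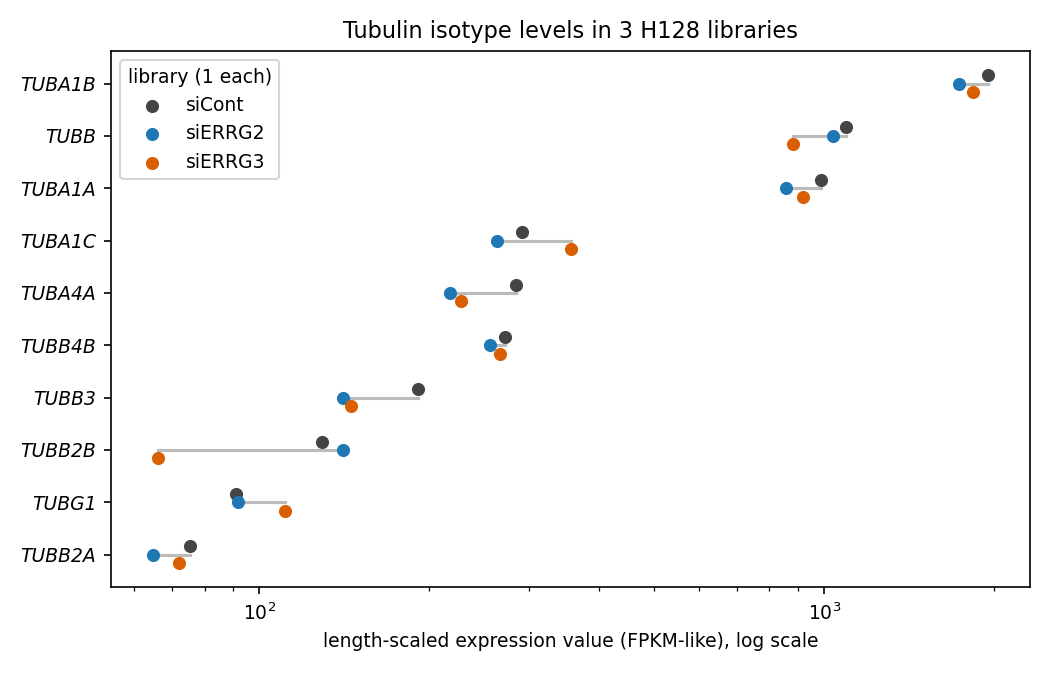
Length-scaled expression value (FPKM-like, log axis) of each tubulin member, 1 point per library (siCont, siERRG2, siERRG3), with a grey line over the range. TUBA1B is highest in every library (1733 to 1950) and TUBB2B has the widest range in proportion (66.2 to 141).

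Each siRNA library was compared with siCont, and both comparisons use the same siCont library, so their values are given side by side and are not independent. A gene was called at a 1.2-fold difference of CPM (TMM-scaled counts relative to library size), the threshold of the study. Ratios carry a 95% exact binomial (Clopper-Pearson) interval that covers counting error only and compares libraries, not conditions. In siERRG2, 2 of the 10 members were lower and 0 higher, beside 19.2% of all genes tested called lower and 16.4% higher. In siERRG3, 4 members were lower and 2 higher, beside 25.1% and 23.2% of all genes. The median log2 fold change of the members was -0.17 in siERRG2 and -0.11 in siERRG3, against -0.0004 and -0.0033 over all genes tested.

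The members are among the most deeply counted genes, of which a smaller share was called. Among the 1999 genes with a mean count at least that of the lowest member (2280), 9.31% were lower and 6.003% higher in siERRG2, and 18.6% were lower and 14.2% higher in siERRG3. The intervals of 8 members lay below 1 and that of 1 above 1 in siERRG2. In siERRG3, 6 lay below 1 and 2 above. The share of all genes with such intervals was not computed, so these counts are not a result about the members. With counts of this size an interval excludes 1 at differences well under 1.2-fold.

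TUBA1B had 67694, 60281 and 64207 counts, with ratios to siCont of 0.880 (0.871 to 0.890) and 0.933 (0.923 to 0.943). TUBA1A had 37606, 32667 and 35163 counts, with ratios of 0.859 (0.846 to 0.872) and 0.919 (0.906 to 0.933). Both alpha genes were highest in siCont and lowest in siERRG2, and neither reached 1.2-fold in either library.

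TUBA1C had 9510, 8599 and 11691 counts. Its log2 fold change was -0.16 in siERRG2, with a ratio of 0.894 (0.868 to 0.920), and 0.27 in siERRG3, with a ratio of 1.21 (1.18 to 1.24). TUBA1C was lower in one siRNA library and higher in the other, and only the higher value passed 1.2-fold, which lies inside its interval. Summed over TUBA1A, TUBA1B and TUBA1C, which share reads, the counts were 114810, 101547 and 111061. The log2 ratios of the sum were -0.19 and -0.072, both under 1.2-fold. TUBA1C gave only 9510 of the 114810 counts in siCont. The sum therefore follows mainly TUBA1A and TUBA1B and cannot show whether the higher value of TUBA1C in siERRG3 holds. These sums were added after the data had been seen.

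TUBA4A had 8128, 6207 and 6522 counts. The log2 fold changes were -0.41 and -0.34, with ratios of 0.755 (0.730 to 0.780) and 0.789 (0.764 to 0.815). TUBA4A was called lower in both libraries, and was the only alpha member to be so.

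TUBB3 was the other member called lower in both. The share of all genes called lower in both was not computed, and both calls use the same siCont library. That 2 members were called in both is therefore not a result about the members. It had 6699, 4935 and 5134 counts, a log2 fold change of -0.46 and -0.41 and ratios of 0.728 (0.702 to 0.756) and 0.754 (0.727 to 0.782). Both siRNA libraries were below siCont, and they differed from each other by a ratio of 1.03 (0.995 to 1.08), an interval that holds 1.

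TUBB2B had 5186, 5651 and 2677 counts. The siERRG3 library stood apart from the other 2. The log2 fold change of TUBB2B was -0.98 in siERRG3, a ratio of 0.508 (0.484 to 0.532) and the largest difference of any member from siCont, and 0.11 in siERRG2, a ratio of 1.08 (1.04 to 1.12). TUBB2A, its near-identical neighbour on chromosome 6, had 2418, 2084 and 2338 counts, with ratios of 0.852 (0.803 to 0.904) and 0.951 (0.898 to 1.01), neither past 1.2-fold. Summed over both genes, which removes the division of shared reads between them, the counts were 7604, 7735 and 5015, a log2 ratio to siCont of 0.01 in siERRG2 and -0.62 in siERRG3. This sum was likewise added later.

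TUBB had 58343, 55256 and 47297 counts. In siERRG2 the ratio was 0.936 (0.925 to 0.947), and in siERRG3 0.797 (0.788 to 0.807), where its log2 fold change of -0.33 was called lower. TUBB4B had 8568, 8078 and 8470 counts, with ratios of 0.932 (0.904 to 0.961) and 0.972 (0.943 to 1.002), and was called in neither library.

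TUBG1, the main gamma tubulin gene, had 3526, 3569 and 4348 counts. In siERRG2 its ratio was 1.001 (0.955 to 1.05), and in siERRG3 1.21 (1.16 to 1.27), where a log2 fold change of 0.28 was called higher. As for TUBA1C, the threshold of 1.2-fold lies inside that interval.

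**Figure D2:**
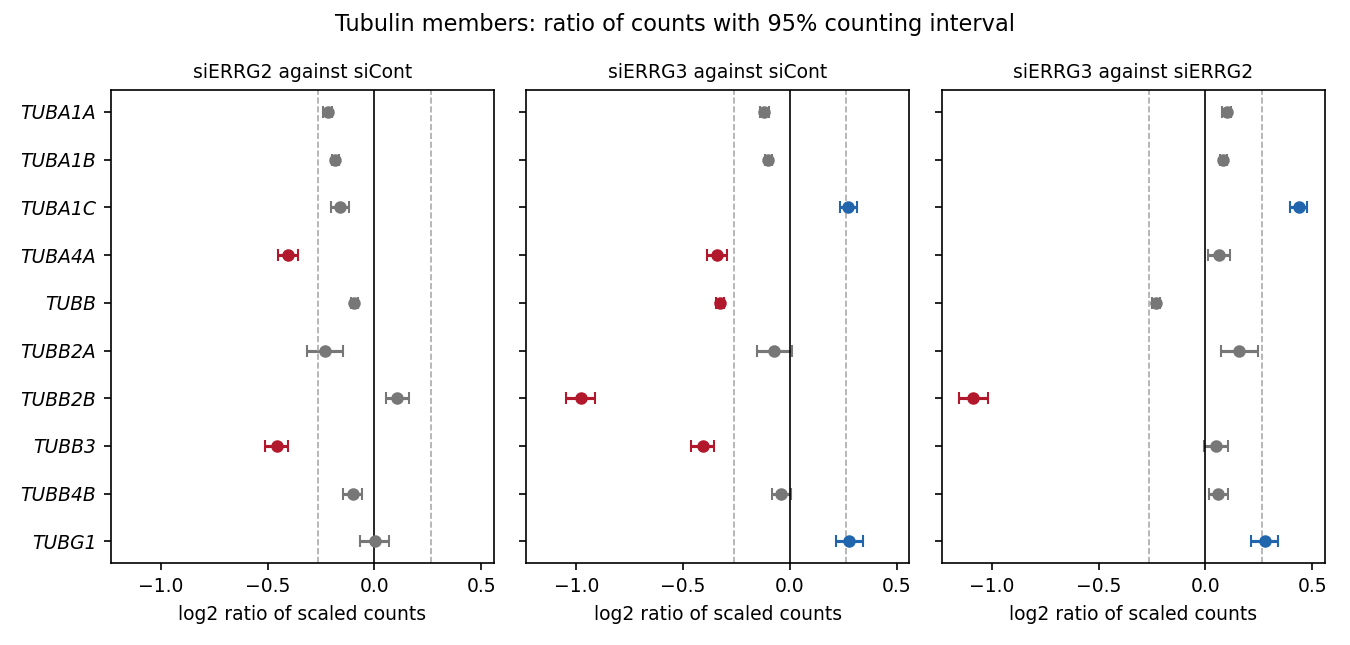
Log2 ratio of scaled counts for the 10 tubulin members in the 3 pairwise comparisons of libraries, with 95% exact binomial intervals (counting error only). Red points were called lower and blue points higher at 1.2-fold (dashed lines), and TUBB2B is the farthest point in both panels with siERRG3, at ratios of 0.508 to siCont and 0.471 to siERRG2.

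The 2 siRNA libraries were also set against each other, which does not use siCont. TUBB2B was lower in siERRG3, with a log2 fold change of -1.08 and a ratio of 0.471 (0.450 to 0.493). TUBA1C was higher, with a log2 fold change of 0.44 and a ratio of 1.35 (1.32 to 1.39), and so was TUBG1, with 0.28 and 1.21 (1.16 to 1.27). These 3 were the members called, 1 lower and 2 higher, beside 25.3% of all genes lower and 26.4% higher. TUBB had a ratio of 0.851 (0.841 to 0.862), short of the threshold, and the remaining 6 members had ratios from 1.03 to 1.12. In this comparison the summed TUBA1 genes had a log2 ratio of 0.12, under 1.2-fold, and TUBB2A and TUBB2B summed had -0.63.

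The isotype composition was taken as each gene's share of the summed length-scaled values, over 8 alpha genes and over 9 beta genes. The members made up at least 99.4% of either sum in every library. The list of members holds the alpha and beta genes with the highest counts, so this share follows from the list. TUBA1B held 55.4%, 56.4% and 55.0% of the alpha sum, and TUBA1A held 28.1%, 27.9% and 27.5%. TUBA1C went from 8.30% in siCont and 8.57% in siERRG2 to 10.7% in siERRG3, and TUBA4A from 8.09% to 7.09% and 6.81%. The alpha composition was led by the same pair of genes in all 3 libraries.

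TUBB held 61.8%, 62.9% and 61.2% of the beta sum, so its share stayed within a narrow range while its level was lower in siERRG3. TUBB4B was second with 15.4%, 15.6% and 18.6%. TUBB3 held 10.8%, 8.53% and 10.1%, TUBB2B 7.29%, 8.54% and 4.60%, and TUBB2A 4.25%, 3.93% and 5.01%. The beta genes together summed to 1773, 1647 and 1438, and the alpha genes to 3518, 3073 and 3336. The ratio of beta to alpha was 0.504, 0.536 and 0.431 in these libraries, lowest in siERRG3. The 10 members took 1.05%, 0.941% and 0.938% of all counts.

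**Figure D3:**
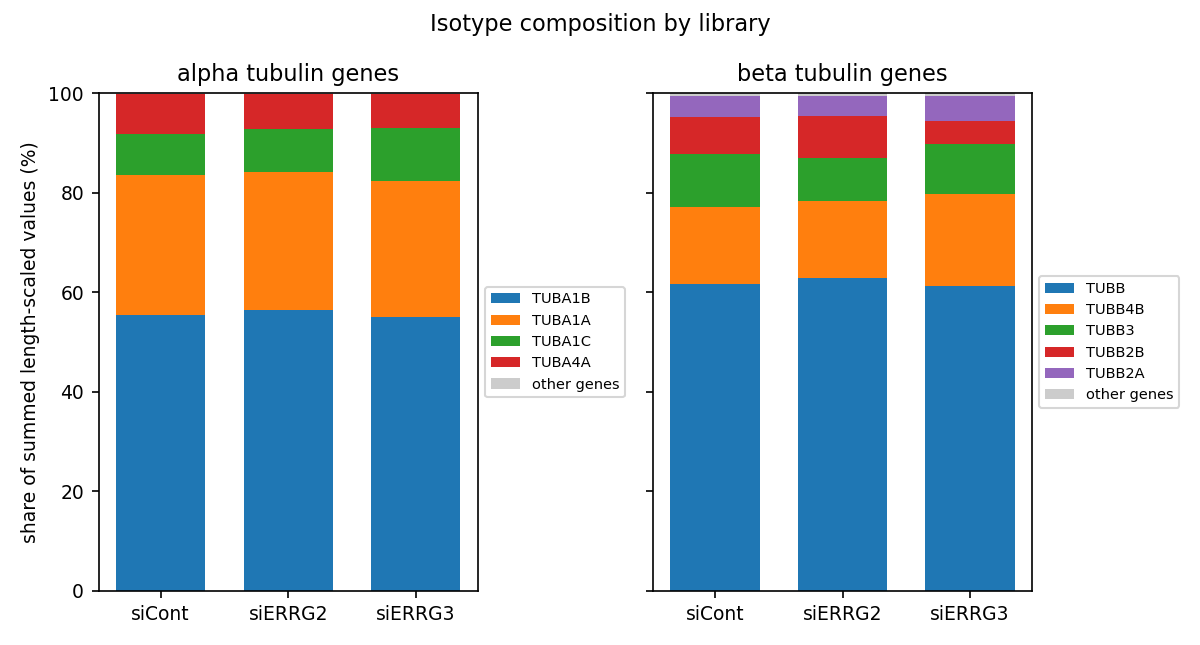
Share (%) of each gene in the summed length-scaled values of the alpha (left) and beta (right) tubulin genes, 1 stacked bar per library. TUBA1B (55.0% to 56.4%) and TUBB (61.2% to 62.9%) lead in every library, and TUBB2B is at 4.60% in siERRG3 against 7.29% in siCont.

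Of 12 further tubulin genes, 11 were in the table, 10 passed the filter on counts and TUBAL3 was not analysed here. In siERRG2, 4 of the 10 were called lower and 1 higher, and in siERRG3, 3 were lower and 3 higher, with medians of -0.20 and 0.12, beside 19.2% lower and 16.4% higher, and 25.1% and 23.2%, of all genes. With only genes of a mean of 50 or more counts, 2 were lower in siERRG2 and 1 in siERRG3, and the median in siERRG2 was -0.074. Only TUBB4A, TUBG2, TUBE1, TUBD1, TUBB6 and TUBB1 exceeded 50 counts in any library. TUBB4A, the beta isotype of brain and oligodendrocytes, had 249, 183 and 138 counts, and its ratios of 0.727 (0.597 to 0.883) and 0.545 (0.439 to 0.674) were both called lower.

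TUBG2, the second gamma tubulin gene, had 344, 273 and 403 counts, a log2 fold change of -0.35 in siERRG2 and 0.20 in siERRG3, of which only the first passed 1.2-fold. TUBE1, the epsilon tubulin of centrioles, had 377, 392 and 490 counts and was called higher in siERRG3 at a log2 fold change of 0.35. TUBB1, the beta isotype of platelets, had 75, 154 and 95 counts, with ratios of 2.03 (1.53 to 2.71) and 1.25 (0.911 to 1.71). TUBD1, the delta tubulin, and TUBB6 were called in neither comparison with siCont. TUBA3C, TUBA3D, TUBA3E and TUBA8 had 6 to 32 counts, and TUBB8 had 0 to 3 and was not compared.

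New tubulin is folded by the CCT chaperonin and prefoldin and assembled into dimers by the cofactors TBCA to TBCE. Of the 8 CCT subunits, 0 were lower in either library, 1 was higher in siERRG2 and 2 in siERRG3, with a median log2 fold change of 0.17 and 0.20. Over all genes tested, 19.2% were lower and 16.4% higher in siERRG2, and 25.1% and 23.2% in siERRG3. These shares also apply to the lists that follow. CCT6A, the zeta subunit, had 13633, 16702 and 16566 counts, and TCP1, the alpha subunit, had 6599, 7914 and 8237. CCT4, the delta subunit, was called higher in siERRG3 at a log2 fold change of 0.30. Of 13 prefoldin subunits, cofactors and ARL2, 1 was lower and 1 higher in siERRG2 and 4 were higher in siERRG3, with medians of 0.02 and 0.13. PFDN2, a prefoldin subunit, had 4535, 4503 and 5964 counts and was higher in siERRG3 (0.37). TBCD, a cofactor that holds beta tubulin, had a log2 fold change of -0.39 in siERRG2 and -0.25 in siERRG3, and its partner ARL2 0.36 and 0.12.

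The 3 genes of tubulin mRNA autoregulation, TTC5 (which reads the nascent tubulin chain), SCAPER and CNOT11, were called in neither comparison with siCont. TTC5 had 286, 320 and 292 counts, SCAPER 467, 512 and 536, and CNOT11 1145, 1355 and 1153.

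Of 20 genes of the gamma tubulin ring complex and augmin, 2 were lower and 2 higher in siERRG2, and 7 were lower and 2 higher in siERRG3. These counts stand beside 19.2% lower and 16.4% higher, and 25.1% and 23.2%, of all genes. The medians were -0.05 and -0.04. TUBGCP3, a core subunit of the ring, had 1395, 1263 and 955 counts and was lower in siERRG3 at a log2 fold change of -0.57. Of the augmin subunits, HAUS7 was lower in both libraries (-0.63 and -0.37) and HAUS2 higher in both (0.28 and 0.42).

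Of 22 tubulin-modifying enzymes, 2 were lower and 5 higher in siERRG2, and 6 were lower and 4 higher in siERRG3, with medians of 0.01 and -0.03. The shares of all genes were 19.2% lower and 16.4% higher in siERRG2, and 25.1% and 23.2% in siERRG3. HDAC6, a tubulin deacetylase, had 928, 772 and 569 counts and log2 fold changes of -0.28 and -0.73, lower in both libraries. TPGS1, a subunit of the tubulin polyglutamylase complex, was lower in both (-0.37 and -0.27). AGBL3, a carboxypeptidase of the deglutamylase family, was called higher in both (0.46 and 0.88) at 52 to 99 counts. Its ratio in siERRG2 was 1.39 (0.959 to 2.02), an interval that holds 1. TTLL1, the catalytic subunit of that polyglutamylase complex, had 96, 83 and 54 counts and was lower in siERRG3 (-0.83). TTLL3, a glycine ligase of the same family, had 27, 51 and 49 counts and was higher in both (0.85 and 0.79).

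Of 31 microtubule-associated genes, 5 were lower and 4 higher in siERRG2, and 5 were lower and 9 higher in siERRG3, with medians of -0.05 and -0.02. For these and for the severing enzymes below, the shares of all genes were 19.2% lower and 16.4% higher in siERRG2, and 25.1% and 23.2% in siERRG3. MAP1B, a neuronal microtubule-binding protein, had 27147, 17388 and 22173 counts, with ratios of 0.633 (0.621 to 0.645) and 0.803 (0.789 to 0.818), both called lower. MAP1A, its relative in mature neurons, had 426, 473 and 1051 counts and a log2 fold change of 1.27 in siERRG3. CLIP2, a plus-end linker, was lower in both libraries (-0.66 and -0.48). Of 9 severing enzymes, 2 were lower and 1 higher in siERRG2, and 3 were lower and 1 higher in siERRG3, with medians of 0.02 and -0.22, and KATNAL1, a katanin catalytic subunit, was lower in both (-0.62 and -0.33).

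Of 8 actins and actin-binding genes, a set of the other main cytoskeletal system, 0 were lower and 2 higher in siERRG2, and 1 was lower and 1 higher in siERRG3. These counts stand beside 19.2% lower and 16.4% higher, and 25.1% and 23.2%, of all genes. The medians were 0.09 and -0.02. TMSB4X, which binds actin monomers, was higher in both libraries (0.31 and 0.66), while TMSB10 was lower in siERRG3 (-0.46).

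Of 12 markers of cycling cells, 2 were lower in siERRG2, beside 19.2% of all genes, and 6 in siERRG3, beside 25.1%, with 0 higher in either, medians of -0.14 and -0.28 and a summed level of 2528, 2271 and 1935 CPM. MKI67, a proliferation antigen, had 9222, 8149 and 5214 counts, and CCNA2, the cyclin of S and G2 phase, 2313, 2149 and 1182. CCNB2 (-0.72 and -0.46) and BIRC5 (-0.50 and -0.50), both active in mitosis, were lower in both libraries, and the mitotic checkpoint kinase BUB1 was lower in siERRG3 (-0.92). Of 8 neuroendocrine markers, whose summed level was 1913, 1582 and 1597 CPM, 2 were lower and 2 higher in siERRG2, and 3 were lower and 1 higher in siERRG3. For this and the later marker lists, the shares of all genes were 19.2% lower and 16.4% higher in siERRG2, and 25.1% and 23.2% in siERRG3. NEUROD1 was lower in siERRG3 (-0.88) and INSM1 in siERRG2 (-0.99). In bulk RNA, fewer cells of a state and less RNA per cell cannot be told apart, and the part of these markers in the tubulin values was not tested. DLL3 was higher in both libraries (0.30 and 0.54) and SCG2 in siERRG2 (1.23). Of 5 markers of non-neuroendocrine SCLC, 3 were higher and 0 lower in siERRG2, and 3 were higher and 1 lower in siERRG3. VIM was higher in both (0.45 and 0.42) and CD44 in siERRG3 (1.30). REST, the marker lower in siERRG3, and POU2F3 had only 2 to 11 counts. Of 6 markers of leukocytes, endothelium and fibroblasts, 2 were lower and 1 higher in siERRG2, and 2 were lower and 3 higher in siERRG3, at summed levels of 12.7 to 15.4 CPM, with VWF at 0 in siCont and siERRG3, PTPRC at 21 to 29 counts and COL1A1 at 127 to 181.

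ERRγ binds single extended half-sites, so the promoter windows of RefSeq (250 bases before to 50 after each start, GRCh38.p14) were searched on both strands. All 10 members matched, with 14 windows among 35116. The 9-letter element TCAAGGTCA was in 0 of the 14 windows and in 0.353% of all windows. Its core AAGGTCA, which is contained in it, was in 2 windows, both of TUBA1C and overlapping at that site, and in 3.92% of all windows. Another window of TUBA1C, further downstream (chr12:49264832-49265131), did not hold the core. CCAAT, the NF-Y motif, was in 9 windows of 7 members and in 34.6% of all windows. The windows of TUBA1C (chr12:49227676-49227975, plus strand) and of TUBB2B (chr6:3227604-3227903, minus strand), the members whose values differed most between the siRNA libraries, are shown 5′ to 3′ with matches to the NF-Y motif and to the core of the ERR element, on either strand, in capitals.
TUBA1C: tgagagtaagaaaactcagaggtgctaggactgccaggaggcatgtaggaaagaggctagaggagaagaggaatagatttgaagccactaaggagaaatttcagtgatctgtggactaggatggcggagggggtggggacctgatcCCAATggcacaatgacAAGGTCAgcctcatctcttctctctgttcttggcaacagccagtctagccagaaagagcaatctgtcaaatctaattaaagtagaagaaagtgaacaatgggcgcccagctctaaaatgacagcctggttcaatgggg
TUBB2B: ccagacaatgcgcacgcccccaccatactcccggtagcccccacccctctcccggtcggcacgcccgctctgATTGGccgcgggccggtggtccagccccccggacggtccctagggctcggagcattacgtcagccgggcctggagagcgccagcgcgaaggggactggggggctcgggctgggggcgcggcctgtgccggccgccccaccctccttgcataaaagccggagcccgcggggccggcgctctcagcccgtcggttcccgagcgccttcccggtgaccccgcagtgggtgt

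TUBA1C holds 1 CCAAT and 1 AAGGTCA in this window, and TUBB2B holds 1 CCAAT on the opposite strand. All members except TUBA1C, TUBA4A and TUBB3 among them, held neither form of the ERR element in their windows. A match is a run of letters and not evidence of binding.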

How the data were processed

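RNA from 3 libraries of H128 cells, 1 per condition, was analysed. The authors deposited an estimated count (expected count) per gene, not normalized, and a length-scaled expression value whose unit the table does not name but which behaves as FPKM. The deposited log2 ratios and Poisson p-values of each siRNA against siCont were not used. The methods name single-end reads of 50 bases and an alignment by BWA and Bowtie 2 to GRCh37/hg19. The labels name paired-end libraries, the submitters' processing notes also list TopHat2, HTSeq and DESeq2, and the table's coordinates are those of GRCh38, so the route to the counts is not settled here. Which library received which named ESRRG siRNA is not given in the sources used here.

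Counts were rounded to whole numbers and genes with at least 10 in at least 1 library were kept. Libraries were scaled by TMM (edgeR 4.0.16, R 4.3.3), log2 CPM used a prior count of 2, and a 1.2-fold difference was called. Intervals are 95% Clopper-Pearson intervals of scaled count ratios. The calculation was tested on simulated data. Named genes were all members and ESRRG, every other tubulin that passed the filter, and up to 3 genes per list with the largest fold change and a mean of at least 50 counts, with those called the same way in both siRNA libraries with intervals excluding 1. Cell markers outside this rule (YAP1, VWF, PTPRC, REST, POU2F3) were named after their values were seen. The members and the lists were chosen with earlier results of these data known. Alternatives were total-count scaling, DESeq2 1.42.0 size factors, length-scaled values with a pseudocount of 0.1, other priors, filters and thresholds, and other bases of the shares. Shared 50-base windows and coding identities were computed from GENCODE transcripts of GRCh37 (Biopython 1.88).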

Additional observations from a re-analysis of the deposited data

Results flagged for a closer look

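For 3 of the genes named here the ratio to siCont lay on opposite sides of 1 in the siERRG2 and siERRG3 libraries, each interval excluding 1. The same held for 18 of the 165 members and listed genes tested, 2 of them members. The share over all genes tested was not computed, so these counts have no background to be judged against. These intervals cover counting error only, both comparisons use the same siCont library, and the difference between conditions was not tested. TUBA1C had a log2 fold change of 0.44 for siERRG3 against siERRG2. The summed counts of TUBA1A, TUBA1B and TUBA1C had 0.12, which is under 1.2-fold. That sum holds mostly counts of TUBA1A and TUBA1B and cannot settle the value of TUBA1C. For TUBB2B the value was -1.08, and for TUBB2A and TUBB2B summed it was -0.63. For PFN2, a neuronal profilin that binds actin monomers, it was -0.35, with 8615, 10626 and 8366 counts.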

How the results depend on the processing

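No paired analysis was possible because each condition was 1 library, and no library could be left out. At a 1.5-fold threshold, 0 members were lower in siERRG2, 1 lower and 0 higher in siERRG3, and 0 higher in siERRG3 against siERRG2. Over all genes that threshold gave 978 lower and 602 higher in siERRG2, 1396 and 1188 in siERRG3, and 1404 and 1501 between the siRNA libraries, against 2689 and 2295, 3516 and 3257, and 3550 and 3704 at 1.2-fold. In siERRG2 a mean of at least 50 counts gave 1789 lower and 1421 higher, no filter gave 3455 higher, and requiring an interval without 1 gave 1428 higher. By counts, which do not allow for length, TUBA1B held 55.0%, 55.9% and 54.6% of the alpha sum and TUBB 71.4%, 72.3% and 71.4% of the beta sum in siCont, siERRG2 and siERRG3, and among members only TUBB held 63.2% in siERRG2.

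Under total-count scaling, DESeq2 size factors, length-scaled values, a lower prior or no filter, all 30 log2 fold changes of the members stayed within their counting interval, with a largest shift of 0.02. Under the filter on a mean of 50 this held for 28 of the 30, and 1 uncalled value changed sign. Over all alternatives, 101 of 624 recomputed counts of lower or higher genes in the lists moved by over 1.5 times, or to or from 0. Summing TUBA1A, TUBA1B and TUBA1C, an alternative added after seeing the data, gave -0.072 in siERRG3, against the higher value of TUBA1C alone. Most counts of that sum are of TUBA1A and TUBA1B, so it does not test TUBA1C by itself. The cause of the TUBA1C value was not tested. Summing the near-identical genes moved 12 of 15 values out of their counting interval and reversed 1, with a largest shift of 0.79. Each condition was 1 library. At these counts the counting interval is narrow, and it says nothing of the spread between cultures.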

Other observations

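The deposited table gives several members a far wider span than RefSeq does: 236.4 kb against 3.377 kb for TUBB2B, 161.0 kb against 4.286 kb for TUBA1A and 212.7 kb against 46.675 kb for TUBA1C. The deposited strand differed from that of RefSeq for 4 of the 10 members and for 2920 of 13693 genes compared. Genes inside these spans were examined after their values had been seen. Within the span of TUBB2B, BPHL, a mitochondrial hydrolase gene of the same part of chromosome 6, had 508, 523 and 271 counts, a ratio to siCont of 0.525 (0.451 to 0.609) in siERRG3, beside 0.508 for TUBB2B. Other genes of that span had other values. NQO2 had 681, 818 and 1075 counts, RIPK1 499, 620 and 497, and PSMG4 850, 835 and 901.

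Around TUBB3 on chromosome 16, TCF25 had 1406, 1250 and 894 counts and MC1R 140, 124 and 94, both called lower in siERRG3 only, whereas TUBB3 was lower in both siRNA libraries. Around TUBA4A on chromosome 2, DNAJB2 had 1090, 1206 and 1385 counts and STK16 263, 304 and 347, both called higher in siERRG3, while ANKZF1 had 625, 691 and 365 counts and was called lower in siERRG3, as TUBA4A was.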
